A study of Mus musculus with 6 samples.

Results

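Gbp2, Gbp3, Gbp6, Igtp and Irgm1 are mouse genes for GTPases that interferon induces. Their probe sets were found by gene symbol: every probe set outside the controls whose single listed symbol is one of these 5 names. This gave 7 probe sets, 2 each for Gbp2 and Gbp6 and 1 each for Gbp3, Igtp and Irgm1, of 34945 probe sets with 1 symbol, for 18193 genes, and 45037 in all. All 7 passed the filter on dim probe sets and were tested, 1 of the 2 for Gbp6 through high readings on only part of the arrays.

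The samples were bone marrow cells of C57BL/6 mice, kept in medium with 20% fetal bovine serum and 10 ng/ml interleukin-7, a cytokine that sustains early B lymphocytes. Cells lacking both cryptochromes (Cry1 and Cry2, repressors of the circadian clock), labelled DKO 1 to DKO 3, were set against wild type cells, labelled WT 1 to WT 3. Each of the 6 arrays gave 1 intensity per probe set. The labels name no interferon or infection, do not say how the genes were deleted, and are silent on whether each array had an animal or a culture of its own, so p-values here speak of the spread among these 6 samples alone, and that spread may be technical.

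Interferon-induced GTPases defend cells against microbes that live in vacuoles. Guanylate-binding proteins, the Gbp family, assemble on the membranes of such vacuoles and on bacteria. Immunity-related GTPases form a second family, in which Igtp and Irgm1 are regulators that sit on the cell's own membranes and keep the effector GTPases of the family off them. Interferon gamma signals through the kinases Jak1 and Jak2, and the transcription factor Irf1, which it induces, is among those that act on the promoters of these genes. Interferons are also known to inhibit the growth of early B cells in interleukin-7.

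WT 2 stood apart from the other 5 arrays, and DKO 3 lay nearer to wild type than to its own group. On WT 2 the ratio of 3′ to 5′ signal was 824 for the Actb control probe sets and 132 for those of Gapdh, against 1.47 to 2.05 and 0.838 to 1.72 on the others, and its median intensity was 115 against 44.0 to 55.3. Across probe sets WT 2 correlated with the other arrays at 0.832 to 0.848 on the log2 scale. DKO 3 correlated at 0.982 with WT 3 and 0.973 with WT 1, and at 0.964 with DKO 2 and 0.956 with DKO 1. The single Cry1 probe set read 359 to 545 in DKO and 955 to 1533 in WT, and the single Cry2 probe set 133 to 178 in DKO and 102 to 145 in WT. Whether these probes lie in the deleted parts was not analysed here, so they do not check the labels. B lineage markers were present: of 15 listed genes 14 had a named probe set, and none of these was below the array median on any array. Values are given array by array. The differences of the 5 genes and the medians of the interferon and T and NK cell lists are given with and without WT 2 and DKO 3, and other results with all arrays or also without WT 2.

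The promoter windows of the GTPase genes are shown because interferon acts on these genes through short motifs near the start of transcription. The windows are from RefSeq on build GRCm38.p6 and run from 250 bases before to 50 bases after the start. Of the 5 genes 4 had a window, and Gbp6 had none. The letters of the interferon-stimulated response element, a pair of GAAA runs with any 2 bases between them, and of the gamma-activated site, TTCNNNGAA, were searched on both strands, and capitals mark each match. A run of capitals that is longer than 1 motif holds overlapping matches. The Gbp2 window lies at chr3:142620413-142620712 on the + strand, that of Gbp3 at chr3:142559794-142560093 on the + strand, that of Igtp at chr11:58199306-58199605 on the + strand, and that of Irgm1 at chr11:48871371-48871670 on the - strand. Each is written 5′ to 3′ in the direction of the gene.
Gbp2: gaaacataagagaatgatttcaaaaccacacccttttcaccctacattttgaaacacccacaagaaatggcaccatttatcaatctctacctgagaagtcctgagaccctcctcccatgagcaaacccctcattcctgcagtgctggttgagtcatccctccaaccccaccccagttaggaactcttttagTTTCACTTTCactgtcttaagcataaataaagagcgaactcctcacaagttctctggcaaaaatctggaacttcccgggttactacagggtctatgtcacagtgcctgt
Gbp3: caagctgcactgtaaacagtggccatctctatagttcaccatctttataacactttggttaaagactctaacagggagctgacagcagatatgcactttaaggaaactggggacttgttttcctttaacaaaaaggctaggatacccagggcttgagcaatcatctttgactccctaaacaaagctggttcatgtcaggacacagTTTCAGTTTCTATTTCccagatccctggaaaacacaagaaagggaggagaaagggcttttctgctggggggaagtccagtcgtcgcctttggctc
Igtp: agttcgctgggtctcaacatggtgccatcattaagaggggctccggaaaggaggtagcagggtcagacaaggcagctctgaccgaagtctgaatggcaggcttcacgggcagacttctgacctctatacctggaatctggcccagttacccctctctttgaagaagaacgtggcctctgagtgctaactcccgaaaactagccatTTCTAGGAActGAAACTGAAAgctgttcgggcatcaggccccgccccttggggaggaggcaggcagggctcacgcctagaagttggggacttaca
Irgm1: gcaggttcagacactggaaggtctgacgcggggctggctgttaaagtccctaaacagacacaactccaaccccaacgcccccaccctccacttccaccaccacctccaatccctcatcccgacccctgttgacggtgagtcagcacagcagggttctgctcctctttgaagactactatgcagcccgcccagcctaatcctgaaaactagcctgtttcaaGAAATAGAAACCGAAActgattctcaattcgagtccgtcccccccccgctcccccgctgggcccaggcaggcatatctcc

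The response element letters stood in all 4 genes with a window, once each in Gbp2 and Igtp and as 2 overlapping matches each in Gbp3 and Irgm1. Gbp3 had a further window, from another start, with no match. Of all 32851 windows of 300 bases, 3.44% held these letters. The gamma-activated letters stood in 1 of the 4 genes, Igtp, against 8.30% of all windows. Of 18 other GTPase genes listed, 8 had a window, of which 7 held the response element letters and 6 the gamma-activated letters. In Igtp both motifs stood side by side with 2 bases between them, and the same spacing was found in Irgm2, another regulator of the family, and in Tgtp1 and Tgtp2, effectors of the family. These stretches lie at chr11:58199511-58199531 for Igtp, chr11:58214902-58214922 for Irgm2, chr11:48992314-48992334 for Tgtp1 and chr11:49064273-49064293 for Tgtp2. The first run of capitals is the gamma-activated site and the second the response element.
Igtp: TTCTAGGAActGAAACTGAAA
Irgm2: TTCCAGGAActGAAACTGAAA
Tgtp1: TTCCAGGAAtcGAAACTGAAA
Tgtp2: TTCCAGGAAtcGAAACCGAAA
A match is a run of letters and no measured binding site. Both motifs together were found in 0.454% of all windows.

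**Figure D1:**
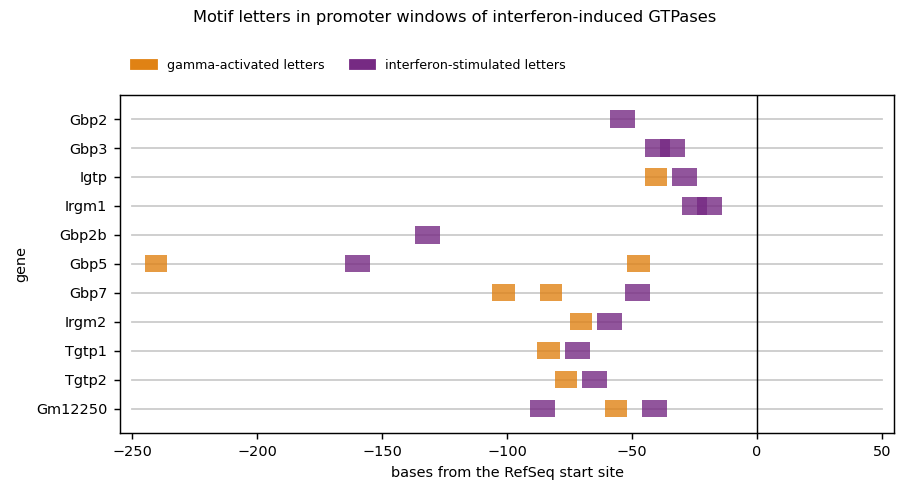
Matches of the motif letters in the promoter windows of GTPase genes, as distance in bases from the RefSeq start (vertical line), on either strand. All 4 windowed genes of the 5 (top rows) hold the interferon-stimulated letters, and of these Igtp alone holds the gamma-activated letters, next to them.

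The GTPase genes also lie in clusters. In the gene order of GRCm38.p6, Gbp5, Gbp7, Gbp3, Gbp2b and Gbp2 follow each other on chromosome 3 with no other protein-coding gene between them. Gbp8, Gbp9, Gbp4, Gbp10 and Gbp6 do so on chromosome 5, and Gm12250, Igtp and Irgm2 on chromosome 11. Irgm1 is elsewhere on chromosome 11, with 4 protein-coding genes between it and Tgtp1.

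The GTPase probe sets read highest on DKO 2, high on most counts on DKO 1, and at about the wild type level on DKO 3. DKO 2 was the highest of the 6 arrays in 7 of 7 probe sets, where it was highest in 11.9% of all 27022 tested. None of the 7 passed the test between the genotypes, and the 2 probe sets called higher in DKO made up 0.0074% of those tested. In such bulk samples, fewer cells of a type and less RNA per cell cannot be told apart. Intensities are given as deposited, and orders and differences are on the scale log2(intensity + 16) with each array centred on its median. On that scale a difference understates the change of a dim gene.

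Igtp, the regulator also known as Irgm3, showed the split between the DKO arrays in full. Its probe set read 2250 on DKO 1, 5204 on DKO 2 and 702 on DKO 3, against 715 on WT 1, 361 on WT 2 and 676 on WT 3. DKO 1 and DKO 2 were far above all WT arrays, and DKO 3 stood at the level of WT 1 and WT 3, just above them on the centred scale. DKO 1 was 3.15 times and DKO 2 was 7.27 times the higher of WT 1 and WT 3, and DKO 3 was 0.981 times that array. The mean log2 signal was 11.15 ± 1.32 in DKO and 9.01 ± 1.10 in WT (SD, n = 3 each). The difference was 2.14 ± 0.83 (SE), at a limma adjusted p of 0.822. Without WT 2 the difference was 1.50 and without DKO 3 it was 2.81, with limma adjusted p of 0.948 and 0.619.

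Irgm1, a regulator that in mice is also needed to sustain blood stem cells during infection, had a smaller spread. It read 1231 on DKO 1, 2164 on DKO 2 and 846 on DKO 3, against 644 on WT 1, 400 on WT 2 and 956 on WT 3. Again DKO 1 and DKO 2 lay above every WT array, by 0.16 and 1.00 on the log2 scale, and DKO 3 lay between WT 1 and WT 3. The means were 10.53 ± 0.58 in DKO and 9.17 ± 1.18 in WT (SD, n = 3 each), and differed by 1.36 ± 0.67 (SE), at a limma adjusted p of 0.822. Without WT 2 the difference was 0.71, and without DKO 3 it was 1.59.

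Gbp2, a guanylate-binding protein that gathers on vacuoles of the parasite Toxoplasma, was measured by 2 probe sets. The probe set 1418240_at read 1805 on DKO 1, 4313 on DKO 2 and 863 on DKO 3, against 683 on WT 1, 136 on WT 2 and 1342 on WT 3. DKO 1 and DKO 2 were above every WT array, and DKO 3 fell between WT 1 and WT 3. The probe set 1435906_x_at, whose suffix marks probes that may also match other transcripts, read 1147, 3065 and 771 on DKO 1 to DKO 3, against 676, 1087 and 1227 on WT 1 to WT 3. Here DKO 2 alone was above every WT array. The probe sets differed most on WT 2, where the first was at percentile 54.8 of that array and the second at 88.6. The difference between the genotypes was 2.17 ± 1.11 (SE) for the first and 0.84 ± 0.62 (SE) for the second. Without WT 2 these were 0.95 and 0.59, without DKO 3 they were 2.65 and 1.18, and limma adjusted p was 0.822 for both with all arrays and 0.948 without WT 2.

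Gbp3, its neighbour on chromosome 3, had the narrowest range on the DKO arrays. It read 2102 on DKO 1, 2847 on DKO 2 and 1730 on DKO 3, against 1295 on WT 1, 933 on WT 2 and 2377 on WT 3. DKO 1 and DKO 3 lay between WT 1 and WT 3, and DKO 2 was 1.20 times WT 3. The means were 11.26 ± 0.28 in DKO and 10.33 ± 1.21 in WT (SD, n = 3 each). They differed by 0.92 ± 0.65 (SE), at a limma adjusted p of 0.822, by 0.29 without WT 2 and by 1.01 without DKO 3.

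Gbp6, a guanylate-binding protein of the chromosome 5 cluster, had the largest ratios of the 5 genes on DKO 1 and DKO 2. Its probe set 1447927_at read 410 on DKO 1, 1643 on DKO 2 and 24.5 on DKO 3, against 37.0 on WT 1, 13.6 on WT 2 and 37.8 on WT 3. DKO 3 and all WT arrays were below their array median, and DKO 1 and DKO 2 were at percentiles 75.2 and 89.4 of theirs. The mean log2 signal of this probe set was 8.41 in DKO and 5.30 in WT. It passed the filter on dim probe sets through its DKO 1 and DKO 2 values. DKO 1 was 10.8 times and DKO 2 was 43.5 times the higher of WT 1 and WT 3, ratios over readings below the array median and so imprecise. The probe set 1438676_at read 174, 773 and 46.8 on DKO 1 to DKO 3, against 35.6, 92.1 and 26.8 on WT 1 to WT 3. On the centred log2 scale DKO 3 was above every WT array too on this probe set, by 0.34. As deposited it read below WT 2. The genotypes differed by 3.11 ± 1.23 (SE) on the first probe set and by 2.08 ± 0.79 (SE) on the second. Both had a limma adjusted p of 0.822. Without WT 2 the differences were 2.50 and 2.15, and without DKO 3 they were 4.49 and 2.88, with limma adjusted p of 0.348 and 0.427 in the fit without DKO 3.

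**Figure D2:**
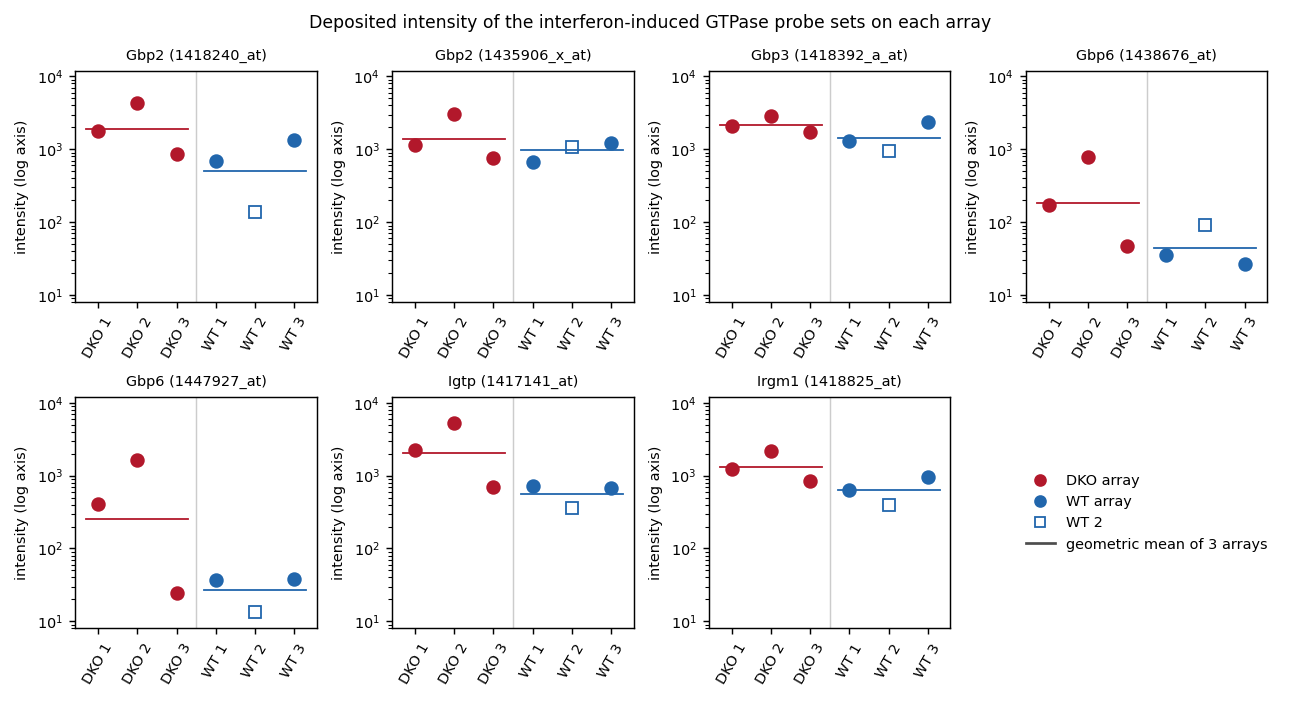
Deposited intensity (log axis) of each of the 7 probe sets on the 6 arrays, before centring, with DKO left of WT, WT 2 as an open square and lines at the geometric mean of each genotype. DKO 2 is the highest array in every panel, and DKO 3 lies at 24.5 to 1730, near WT 1 and WT 3.

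Set against all tested probe sets, the per-array counts stood as follows. DKO 1 was above every WT array in 5 of 7 probe sets, where the background was 24.9%, DKO 2 in 7 (24.0%) and DKO 3 in 2 (34.4%). Both DKO 1 and DKO 2 were so in 5 (17.2%). All DKO arrays together were above every WT array in 2 of 7, Igtp and Gbp6 1438676_at, against 6.97% of all tested. Both cases rested on the centring. As deposited, Igtp read 702 on DKO 3 and 715 on WT 1. Gbp6 1438676_at read 46.8 on DKO 3 and 92.1 on WT 2. By at least 1 on the log2 scale, DKO 1 was above every WT array in 3 of 7 (background 2.48%) and DKO 2 in 5 of 7 (2.35%). DKO 3 was so in 0 of 7 (0.326%). The 3 probe sets for DKO 1 were Igtp and both of Gbp6, and in these DKO 2 passed as well (1.65% for both arrays). Gbp6 1447927_at was tested through its DKO 1 and DKO 2 values, so the counts for these arrays are partly fixed by the filter. All DKO arrays were so in 0 of 7 (0.133%).

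Between the DKO arrays, DKO 2 was above DKO 1 in 7 of 7 probe sets (background 50.1%), by ratios of 1.35 to 4.45. Each of DKO 1 and DKO 2 was above DKO 3 in 7 of 7 (31.8%). DKO 3 lay between WT 1 and WT 3 in 4 of 7 (31.3%), and at 0.628 to 1.32 times the higher of these arrays over the 7. WT 2 was the lowest of the 6 arrays in 6 of 7 probe sets, and in 53.4% of all tested.

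In the fit over all 6 arrays the differences of the 7 probe sets were all positive, from 0.84 to 3.11. The share of all tested probe sets with a higher mean in DKO was 64.9%, and it was 47.4% without WT 2. Adjusted p was 0.822 for each of the 7, and an unadjusted p under 0.05 was met by 3 of them, Igtp and both of Gbp6, against 1.81% of all tested in that direction. Counts that hold Gbp6 1447927_at, here and below, are partly fixed by the filter, which it passed through DKO 1 and DKO 2. Taking each gene by its probe set of highest mean signal, the median difference of the 5 genes was 1.36, and it was 0.21 over all tested probe sets. Without WT 2 these medians were 0.71 and -0.02, no probe set of the 7 passed with limma, and the range was 0.29 to 2.50. In that fit 1 of the 7, Gbp6 1438676_at, had an unadjusted limma p under 0.05, against 2.28% of all tested as higher. Without WT 2, 0.0185% of those tested passed as higher. Without DKO 3 the median of the 5 genes was 1.59, none of the 7 passed with limma, and 3 had an unadjusted p under 0.05, against 3.61% of all tested. Array weights changed the call: 3 of the 7 passed, Igtp and both of Gbp6, with 1.85% of all tested called higher. They let limma count WT 2 and DKO 3 for less. The largest weight, 4.39, went to DKO 2, the array on which all 7 read highest. Weights by REML, whose iteration stopped before convergence, called all 7, and 16.1% of all tested as higher.

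**Figure D3:**
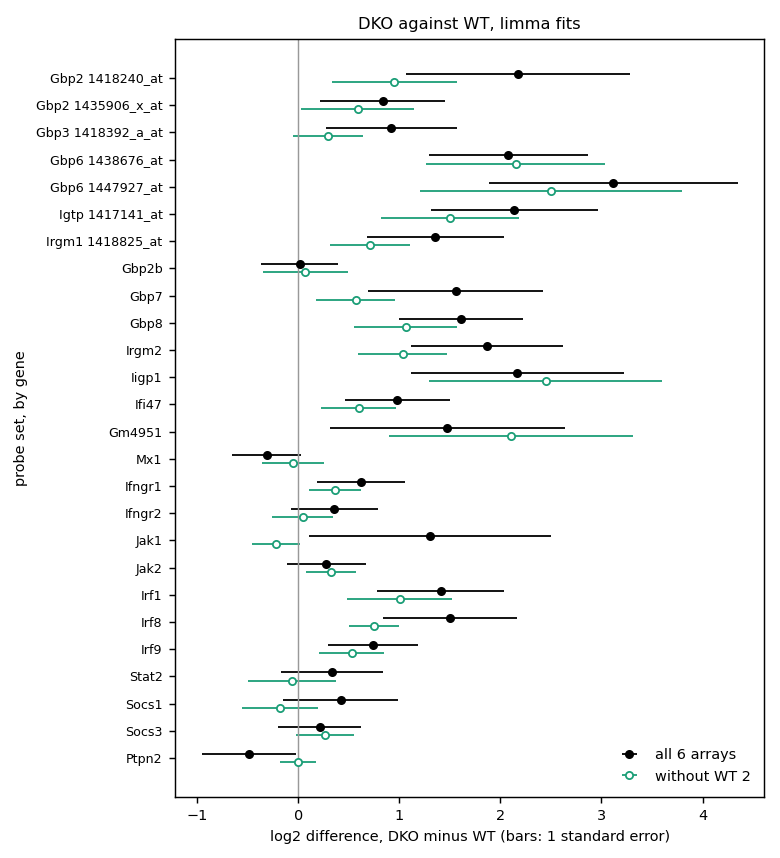
Log2 difference, DKO minus WT, with 1 standard error from limma, for the 7 probe sets and for the other GTPase and interferon gamma signalling genes, with all 6 arrays (filled) and without WT 2 (open). The 7 probe sets run from 0.84 to 3.11 with all arrays and from 0.29 to 2.50 without WT 2.

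Among the other interferon-induced GTPases, DKO 1 and DKO 2 were each above DKO 3 in 6 of 8 tested genes, all but Gbp2b and Mx1. The share of all tested was 31.8%. DKO 2 was above DKO 1 in 7 of the 8 (50.1% of all tested). Of 18 listed genes 9 had a named probe set. None of the 8 was called by limma. An unadjusted p under 0.05 was met by 2, Gbp8 and Irgm2, both higher in DKO (1.81% of all tested). Gbp8 had a mean log2 signal of 6.87 in DKO and 5.26 in WT. It passed the filter on dim probe sets through its DKO values, so its place in these counts is partly fixed by the filter. A higher mean in DKO was found in 7 of 8 (64.9%). The median difference was 1.52, and it was 0.82 without WT 2 and 1.82 without DKO 3. WT 2 was the lowest array in 4 of the 8 (53.4% of all tested). DKO 2 was above every WT array in 6 of the 8 (24.0%), by at least 1 on the log2 scale in 5 (2.35%). DKO 1 was so in 5 (24.9%), by that distance in 1 (2.48%).

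Among the immunity-related GTPases, Irgm2, a regulator like Igtp and its neighbour, read 348, 604 and 171 on DKO 1 to DKO 3, against 156, 42.9 and 148 on WT 1 to WT 3. DKO 1 and DKO 2 were above every WT array, and the difference was 1.87 with a limma adjusted p of 0.822, or 1.03 without WT 2. Iigp1, an effector that coats vacuoles, read 605, 2550 and 77.0 on DKO 1 to DKO 3, against 324 on WT 2, 63.0 on WT 3 and a reading between these on WT 1. DKO 2 was 25.5 times and DKO 1 was 6.05 times the higher of WT 1 and WT 3. The related gene Gm4951 read 151, 655 and 5.68 on DKO 1 to DKO 3, against 25.3, 211 and 7.04 on WT 1 to WT 3. For both, WT 2 was above WT 1 and WT 3. Ifi47, another GTPase of the family, read 3770, 7427 and 2886 on DKO 1 to DKO 3, against 2519, 2512 and 3149 on WT 1 to WT 3, so that DKO 2 stood clear of all other arrays.

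Among the guanylate-binding proteins, Gbp7 read 4843, 7130 and 3801 on DKO 1 to DKO 3, against 2337, 844 and 4879 on WT 1 to WT 3. As with Gbp3, WT 3 reached the level of DKO 1. Gbp8, at the other end of the cluster of Gbp6, read 76.0, 197 and 43.2 on DKO 1 to DKO 3, against 49.6, 15.5 and 21.7 on WT 1 to WT 3. Gbp2b read 36.1, 57.7 and 51.0 on DKO 1 to DKO 3, against 26.1, 118 and 68.8 on WT 1 to WT 3, and no DKO array was above WT 3.

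Mx1, a further GTPase of the list, did not show the order of the 5 genes, but was dim. Nothing on type I interferon is read from so dim a probe set. It read 34.6, 26.5 and 39.3 on DKO 1 to DKO 3, against 32.6, 156 and 36.2 on WT 1 to WT 3. On every array but WT 2 it was below the array median, at percentiles 34.4 to 47.8. DKO 2 was the lowest of the DKO arrays for Mx1, an order that is uncertain at such dim readings.

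**Figure D4:**
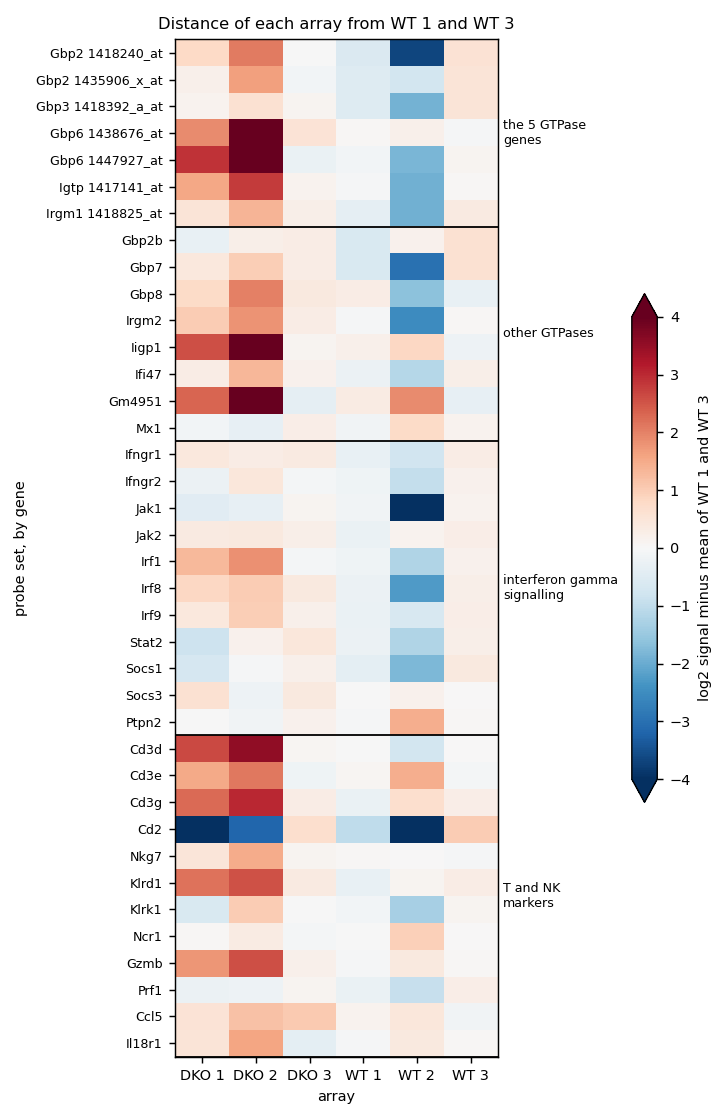
Log2 signal of each array minus the mean of WT 1 and WT 3, for the 7 probe sets and for tested genes of the other GTPase, interferon gamma signalling and T and NK cell marker lists, with colours held at 4 units either way. The DKO 2 column is red in most GTPase rows. DKO 1 is paler there, with a median of 0.79 over the 7 probe sets, against 2.07 for DKO 2 and 0.12 for DKO 3. Both DKO 1 and DKO 2 are red for Irf1, Cd3d, Cd3g, Klrd1 and Gzmb, where DKO 3 is pale. These T and NK genes were picked after their values were seen, and Cd2 runs the other way. WT 1 and WT 3 are the reference, so their columns are centred by the subtraction.

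Interferon gamma itself was dim. Without WT 2 its receptor chains and their kinases, each by its probe set of highest mean signal, differed by -0.22 to 0.37 between DKO and WT. Ifng read 1.54, 22.9 and 32.2 on DKO 1 to DKO 3, against 25.8, 119 and 40.9 on WT 1 to WT 3, and it failed the filter on dim probe sets. No order of arrays is read from so dim a probe set. Of 13 listed genes of the ligand, receptor and signalling, 11 were tested. By limma 0 were called and 0 had an unadjusted p under 0.05. A higher mean in DKO was found in 10 (64.9% of all tested), or 8 without WT 2 (47.4%). The median difference was 0.42, and it was 0.27 without WT 2 and 0.42 without DKO 3.

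Irf1 followed the GTPases. It read 4129, 5864 and 1337 on DKO 1 to DKO 3, against 1490, 1338 and 1638 on WT 1 to WT 3. DKO 1 was 2.52 times and DKO 2 was 3.58 times WT 3, and DKO 3 lay between WT 1 and WT 3 on the centred scale. The genotypes differed by 1.41 ± 0.63 (SE), at a limma adjusted p of 0.822. Irf8, a factor of B cells and myeloid cells, read 8655, 9656 and 5391 on DKO 1 to DKO 3, against 4059, 1845 and 4984 on WT 1 to WT 3. Irf9, a subunit of the complex that binds the response element, read 811, 1172 and 577 on DKO 1 to DKO 3, against 492, 714 and 628 on WT 1 to WT 3.

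The receptor chains and their kinases gave a different picture from Irf1. Ifngr1 read 1182 to 1460 in DKO and 858 to 1180 in WT, and Ifngr2 read 290 to 497 in DKO and 319 to 362 in WT. Jak1 read 2168 to 2704 in DKO and 217 to 2819 in WT, where WT 2 was the lowest, and its difference of 1.30 became -0.22 without WT 2. Another Jak1 probe set, 1433804_at, ran the other way, with a difference of -1.04, or -1.06 without WT 2, and an unadjusted limma p of 0.019. Jak2 read 927 to 1220 in DKO and 769 to 1922 in WT. Stat2 read 62.8, 141 and 148 on DKO 1 to DKO 3, against 101, 97.4 and 130 on WT 1 to WT 3, so DKO 1 was the lowest of the DKO arrays.

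The inhibitors of the pathway did not follow the order of the GTPases either. Socs1, which blocks the Jak kinases, read 87.9, 141 and 144 on DKO 1 to DKO 3, against 110, 72.8 and 172 on WT 1 to WT 3. Socs3 differed by 0.21 and Ptpn2, a phosphatase of the pathway, by -0.49, or 0.27 and 0.00 without WT 2.

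Type I interferon and its receptor showed no such split. Of 6 genes tested, 0 were called by limma and 0 had an unadjusted p under 0.05, with a median difference of 0.19, or 0.07 without WT 2 and 0.18 without DKO 3. The ligand gene Ifnb1 read 71.9, 49.5 and 40.2 on DKO 1 to DKO 3, against 37.6, 153 and 29.5 on WT 1 to WT 3, at percentiles 41.1 to 58.4 of the arrays, and DKO 1, not DKO 2, was the highest DKO array. The receptor chains Ifnar1 and Ifnar2 differed by 0.57 and -0.66, or -0.07 and -0.14 without WT 2. The kinase Tyk2 differed by 0.19, and the factors Irf3 and Irf7 by 0.48 and 0.15, or by 0.04, 0.11 and 0.22 without WT 2. DKO 2 was above every WT array in 1 of the 6 (24.0% of all tested).

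Other interferon-induced genes had smaller medians than the GTPases, a contrast that was not tested. Of 13 tested genes induced by interferon gamma, mostly of antigen presentation, 0 were called by limma and 0 had an unadjusted p under 0.05. A higher mean in DKO was found in 12 (64.9% of all tested). Their median was 0.90, or 0.37 without WT 2 and 0.96 without DKO 3. DKO 2 was at least 1 above every WT array in 1 of 13 (2.35%). Without that distance it was above every WT array in 10 (24.0%), and it was the highest of the 6 arrays in 9 (11.9%). Both DKO 1 and DKO 2 were above every WT array in 8 (17.2%), and DKO 3 was in 7 (34.4%). Part of the array order of the GTPases was thus found in these genes too. B2m, the light chain of class I molecules, differed by 0.21, Psme1, a proteasome activator, by 0.88, and Psmb8, an immunoproteasome subunit, by 1.58, or 0.27, 0.28 and 0.47 without WT 2. Of 21 tested genes induced by type I interferon, 0 were called by limma and 14 had a higher mean in DKO, a share near the 64.9% of all tested. The median was 0.36, or 0.18 without WT 2 and 0.24 without DKO 3. An unadjusted p under 0.05 was met by 3, genes named after their values were seen. Zbp1 was higher in DKO, by 1.48 (1.81% of all tested). Oasl2 and Rsad2 were lower, at -0.72 and -0.96 (1.31%). Ifi35 and Ifi27l2a differed by 0.13 and -0.70 and Trim30a by 1.25, or 0.41, -0.40 and 0.72 without WT 2. DKO 2 was at least 1 above every WT array in 3 of these 21 (2.35% of all tested).

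Partners of the GTPases at vacuoles, chiefly autophagy proteins that guide the GTPases to membranes, ran from -0.27 to 0.54 without WT 2. Of 14 tested, 0 were called by limma and 0 had an unadjusted p under 0.05. A higher mean in DKO was found in 13 (64.9% of all tested), but 8 without WT 2 (47.4%). Their median was 0.63 with all arrays and 0.04 without WT 2. Map1lc3b, Becn1 and Atg3 differed by -0.30, 0.66 and 1.16, or 0.09, -0.01 and -0.14 without WT 2.

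**Figure D5:**
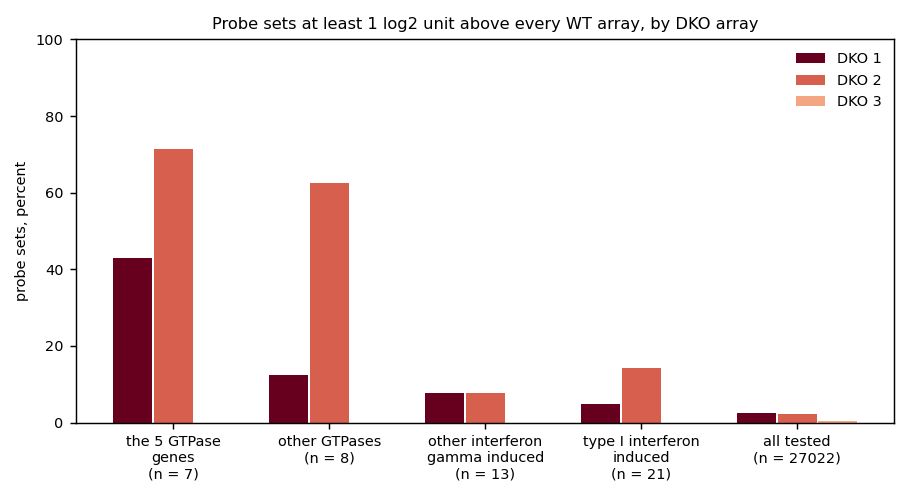
Share of probe sets (percent) at least 1 log2 unit above every WT array, for each DKO array, in the 7 probe sets of the 5 GTPase genes, in 3 further lists with 1 probe set per gene, and in all tested. For the 5 GTPase genes these are 3 of 7 on DKO 1, 5 of 7 on DKO 2 and 0 of 7 on DKO 3, against 2.48%, 2.35% and 0.326% of all tested. Gbp6 1447927_at, counted on DKO 1 and DKO 2, passed the filter on dim probe sets through those arrays.

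Markers of T and NK cells, the main producers of interferon gamma, moved with the GTPases in part. Of 20 listed genes 18 had a named probe set and 12 were tested. None was called by limma. An unadjusted p under 0.05 was met by 5, all higher in DKO (1.81% of all tested), and 10 of 12 had a higher mean in DKO (64.9%). The median difference was 0.68, and it was 0.81 without WT 2 and 0.95 without DKO 3. DKO 2 was at least 1 above every WT array in 6 of 12 (2.35% of all tested) and DKO 1 in 4 of 12 (2.48%). The filter on dim probe sets used the mean over all 6 arrays. A gene dim on the WT arrays, such as Cd3d, was thus tested through DKO 1 and DKO 2. These counts are therefore partly fixed by the filter. Cd3d, a chain of the T cell receptor complex, read 155, 295 and 8.43 on DKO 1 to DKO 3, against 10.6, 14.0 and 7.90 on WT 1 to WT 3. Klrd1, a receptor of NK cells, read 212, 274 and 39.1 on DKO 1 to DKO 3, against 25.0, 84.7 and 38.3 on WT 1 to WT 3. Gzmb, a protease of killer cells, read 159, 290 and 34.5 on DKO 1 to DKO 3, against 33.2, 110 and 30.9 on WT 1 to WT 3. These 3 genes, and Cd3g in the heat map, were chosen after their values were seen. The list's genes of highest signal were Cd2, Ccl5 and Nkg7, with differences of -0.82, 0.77 and 0.69, or -2.22, 0.92 and 0.70 without WT 2. Cd2 ran the other way, at 46.8, 109 and 1528 on DKO 1 to DKO 3, against 534, 99.3 and 2013 on WT 1 to WT 3.

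Over the 18 genes the summed intensity was 1332 to 2303 in DKO and 1007 to 2529 in WT. Of the 18, 10, 4 and 14 were below the array median on DKO 1, DKO 2 and DKO 3, against 14, 13 and 14 on WT 1, WT 2 and WT 3, and none was at 0. The part of these cells in the GTPase signal was not tested.

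Granulocyte markers ran opposite to the GTPases. All 11 tested had a lower mean in DKO (35.1% of all tested), 0 were called by limma and 5 had an unadjusted p under 0.05, all lower in DKO (1.31%). Their summed intensity over 12 genes was 608 on DKO 1, 595 on DKO 2 and 27690 on DKO 3, against 75791 on WT 1, 178800 on WT 2 and 19188 on WT 3. S100a8, S100a9 and Ngp, proteins of neutrophils, differed by -4.84, -4.97 and -4.26, with limma adjusted p of 0.822 each. Macrophage and monocyte markers had a lower mean in DKO in 12 of 13 tested (35.1% of all tested). Their sum over 14 genes was 18661 to 34468 in DKO and 24760 to 126758 in WT. Of that list Ctss, Lyz2 and Lgals3 differed by -0.66, 0.04 and -1.63, or -0.22, -0.28 and -1.41 without WT 2. Dendritic cell markers had a higher mean in DKO in 5 of 7, near the 64.9% of all tested. Their sum over 9 genes was 1483 to 3950 in DKO and 1679 to 3626 in WT. Of these Tcf4, Itgax and Siglech differed by 0.49, 1.06 and -0.03, or 0.41, 0.87 and 0.33 without WT 2. B lineage markers had a higher mean in DKO in 8 of 14, also near 64.9%. Igll1, Vpreb1 and Cd79b, parts of the pre-B and B cell receptors, differed by 0.13, -0.09 and 1.23, or 0.39, 0.14 and 0.21 without WT 2. The part of any of these cells in the GTPase signal was not tested.

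Likeness to the GTPases was measured as Pearson's correlation, over the 6 arrays, with the mean log2 signal of the 5 genes. Candidates were 2479 genes whose SD over the arrays was at least 1, of which 88 reached 0.9. The 5 highest were Irf1 at 0.984, Kcnmb4 at 0.978, Tgfb3 at 0.976, Plaat3 at 0.975 and Spata6 at 0.969, or 0.971, 0.988, 0.95, 0.949 and 0.944 over the 5 arrays without WT 2. Kcnmb4 encodes a subunit of a potassium channel, Tgfb3 a growth factor and Plaat3 a phospholipase. Tgfb3 read 821, 1538 and 109 on DKO 1 to DKO 3, against 177, 44.3 and 166 on WT 1 to WT 3. Plaat3 read 1502, 1824 and 436 on DKO 1 to DKO 3, against 442, 355 and 504 on WT 1 to WT 3. In both genes the readings of DKO 1 and DKO 2 stood above all other arrays. Among the 7 probe sets themselves, the 21 pairwise correlations over the 6 arrays ran from 0.469, between Gbp3 and Gbp6 1438676_at, to 0.995, between Gbp2 1418240_at and Irgm1. These values describe 6 arrays, WT 2 among them, and carry no test.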

How the data were processed

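RNA of 3 DKO and 3 WT samples, as labelled, was biotin-labelled and hybridised to 6 oligonucleotide arrays. The deposited table holds linear intensity per probe set. Per the submitters' processing notes it came from MAS5, of unstated version. Leaving out the top and bottom 2% of values, the mean of every deposited array was 500, which shows scaling by the authors. Precision is limited by the number of arrays.

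Of 45101 probe sets, 64 controls were left out. Analysis used log2(intensity + 16), centred on each array's median. limma 3.58.1 (R 4.3.3; genotype term, variance trend, two-sided) was run on the 27022 probe sets whose mean exceeded percentile 40, with Benjamini-Hochberg adjustment over all of them at 0.05, and was tested on simulated data. A gene in a list is counted by its probe set of highest mean signal. Symbols were updated through gene identifiers to GRCm38.p6. Tables and figures used Python 3.11.15, pandas 2.3.3 and matplotlib 3.10.9.

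The genes and lists were chosen with earlier results of these data known. Named are all probe sets of the 5 genes, tested genes of the other GTPase and both interferon signalling lists, Ifng and Ifnb1, the 3 genes of highest mean signal of each further list, and the 5 genes most like the GTPases. Cd3d, Cd3g, Klrd1, Gzmb, Zbp1, Oasl2 and Rsad2 are named outside this rule, after their values were seen. Alternatives covered quantile normalization, values without centring, pseudocounts (1 and 64), filters (none, or percentile 60), variances without trend, array weights, a replicate block, every probe set of a gene, and leaving out each array. Weights by REML, and the per-array counts under other settings, were added after seeing the data.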

Additional observations from a re-analysis of the deposited data

How the results depend on the processing

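The GTPase probe sets had a positive difference under every alternative in which they were tested, which was all of those run except, for both Gbp6 probe sets, the filter at percentile 60. The 2 calls among all tested probe sets became 0 with quantile normalization, with no centring, with a pseudocount of 1 and with the replicate block, and 1 with the filter at percentile 60. Gene-by-gene array weights called 922, of which 499 were higher (1.85%), and among them 3 of the 7: Gbp6 1447927_at, Igtp and Gbp6 1438676_at, with limma adjusted p of 0.0417, 0.0427 and 0.0435. These weights gave 4.39 to DKO 2 and 0.535 to DKO 3, and 0.0623 to WT 2. REML weights, whose iteration stopped before convergence and which gave 30.9 to WT 1, called 8129 in all (16.1% of those tested as higher) and all 7. Leaving out each array in turn gave 0 to 7 calls over all probe sets, 7 of them without WT 2, and 0 to 0 calls among the 7. The median difference of the 5 genes then ran from 0.71 without WT 2 to 1.86 without WT 3, and it was 0.94 with quantile normalization (-0.02 over all tested) and 1.05 with no centring (-0.10). Counts of probe sets at least 1 above every WT array ran from 2 to 4 for DKO 1 and from 5 to 7 for DKO 2, and were 0 for DKO 3, in the 7 settings run for them. Deviations of same-numbered arrays correlated at -0.15, 0.00 and 0.33, and those of other pairs at -0.39 to 0.32. With 3 arrays per genotype and WT 2 apart, these values cannot tell whether replicate numbers pair the samples. With the number as a block, limma called 0 of 27022 and 0 of the 7, of which 1 had an unadjusted p under 0.05 (470 of all tested as higher). WT readings of both Gbp6 probe sets lay below the array median, which limits how far its ratios can be read. Gbp6 1447927_at was tested through its DKO 1 and DKO 2 values, so counts that hold it are partly fixed by the filter.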
